A study of Mus musculus with 6 samples.

Results

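The sensors of endoplasmic reticulum (ER) stress were followed through 9 genes in RAW264.7 cells, a mouse macrophage line from which osteoclast-like cells can be grown. The genes are Ern1, Xbp1, Eif2ak3, Atf6, Atf6b, Mbtps1, Mbtps2, Creb3 and Creb3l2. Every probe set annotated to exactly 1 of these genes was taken, whatever its value, which gave 26 of the 45037 probe sets tested. All 9 genes had at least 1 probe set. Of the 26, 21 were bright, meaning that their mean intensity over the arrays reached the median for the whole array (63.3), and the other 5 were dim.

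Culture lasted 24 hours. Sodium was 137 mmol/l for the normal group (3 arrays) and 120 mmol/l for the low group (3 arrays). The low-sodium medium was a dilution of the normal one, with mannitol added so that its osmolality stayed at 290 mOsm/l. The cytokines M-CSF (10 ng/ml, spelled M-SCF in the labels) and RANKL (30 ng/ml) appear in the description of the low-sodium medium, which does not settle whether the normal-sodium cells received them too. The labels name 4 biological replicates a group, of which 3 a group were analysed here, and all cells came from 1 line in culture with no genetic change named.

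When unfolded proteins build up in the ER, 3 membrane proteins start the unfolded protein response. IRE1, the product of Ern1, is a kinase and RNase that removes a short intron from Xbp1 mRNA, so that the transcription factor XBP1 can be made in its active form. PERK, the product of Eif2ak3, phosphorylates the initiation factor eIF2 alpha, which slows translation in general and favours that of ATF4. ATF6 and its paralog ATF6 beta (Atf6b) move to the Golgi, where the site-1 protease (Mbtps1) and the site-2 protease (Mbtps2) release their transcription factor domains. The related membrane factors CREB3 and CREB3L2 are released by the same proteases. The arrays measure mRNA and read neither the splicing of Xbp1, nor phosphorylation, nor cleavage.

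In low sodium, Ern1 was 2.10-fold higher by its brightest probe set and Creb3 was 1.47-fold and 1.41-fold higher by the 2 probe sets that separated the groups. Xbp1 was 1.24-fold and 1.26-fold lower by its 2 brightest probe sets, and Atf6b was 1.29-fold lower. Atf6, Eif2ak3, Mbtps1, Mbtps2 and Creb3l2 had no bright probe set whose groups were separate. In lists of genes downstream of the sensors, 12 of 13 measured for the PERK branch had a higher mean in low sodium. Of 18 genes listed as ATF6 targets 14 had a lower one, and those listed as XBP1 targets were mixed (8 higher and 11 lower). Over all 18194 genes 8953 were higher, and the difference between the lists was not tested.

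Strength of evidence differed between models. The test without a batch term (limma, Benjamini-Hochberg adjustment over all probe sets) called 0 of the 26 probe sets and 0 of the 45037, which is 0% of all. At an unadjusted p under 0.05 it held 4 of the 26, against 6.37% of all probe sets. The arrays of replicate 3 stood apart in both groups, where the mean log2 signal of spiked labelling controls was 8.36, against 10.04 to 10.33 on the other 4, while hybridisation controls lay between 12.02 and 12.29 on all 6. A model with replicate 3 as a batch and a variance prior that follows intensity, called the batch-term fit here, passed 6 of the 26 probe sets, against 4.09% of all. It was taken up with earlier counts of calls known, and of the models run on all 6 arrays it gave the most calls. The verbs "rose" and "fell" refer to it. With the same batch term and a constant prior 0 of the 26 passed, and 0% of all probe sets. With the replicate number as a block in place of the batch, and the trended prior, 2 of the 26 were called, both higher, against 1.56% of all probe sets (0.915% higher, 0.646% lower). Of the 6 called in the batch-term fit, 3 rose, against 2.07% of all probe sets, and 3 fell, against 2.01%. All 6 were bright, and dim probe sets lower the shares given over all. Of all 22519 bright probe sets, 925 rose and 890 fell. Groups that did not overlap were found for 7 of the 26 probe sets, against 14.9% of all. With 1 array left out the batch-term fit passed 1 of the 26 without normal-sodium replicate 1 or low-sodium replicate 2, and 0 without normal-sodium replicate 2 or low-sodium replicate 1. Among the 7, low sodium was above in 3 (6.97% of all) and below in 4 (7.88% of all). Of the 21 bright ones it was above in 3 and below in 3, against 2143 and 2571 of the 22519 bright probe sets.

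**Figure D1:**
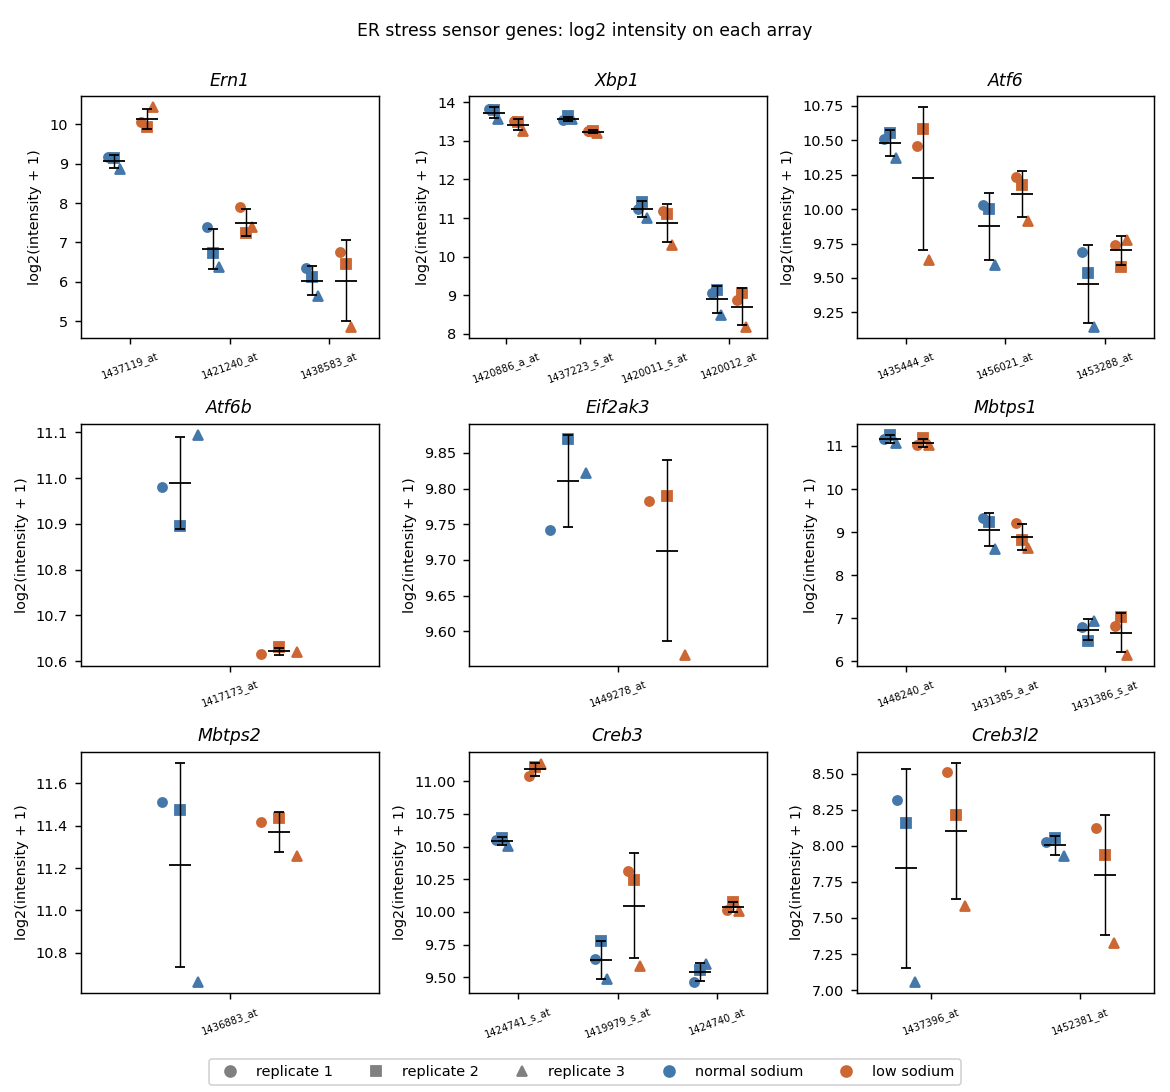
Log2(intensity + 1) of the 21 sensor probe sets at or above the median mean, by gene, on the 3 normal-sodium (blue) and 3 low-sodium (orange) arrays. Marker shapes give the replicate number, and black bars the mean and SD (n = 3). The groups are separate for 1 probe set of Ern1, 2 of Xbp1, 2 of Creb3 and that of Atf6b. Heights of different probe sets are not comparable.

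RefSeq promoter windows of assembly GRCm38.p6, from 250 bases before to 50 bases after a start site, are shown for the 4 genes with such probe sets. Of the 9 genes 8 had a window, and Atf6 was not among them. Capitals mark ACGTG, a core found in some binding sites of XBP1, ATF6 and CREB3-type factors, searched on both strands. The ER stress response element looked for below ends in CCACG and need not hold ACGTG. The core was in 19.6% of all 32851 windows and in 2 of the 8 sensor windows, those of Creb3 and Atf6b. In Atf6b 2 matches on opposite strands overlap.
Ern1, chr11:106487747-106488046, minus strand: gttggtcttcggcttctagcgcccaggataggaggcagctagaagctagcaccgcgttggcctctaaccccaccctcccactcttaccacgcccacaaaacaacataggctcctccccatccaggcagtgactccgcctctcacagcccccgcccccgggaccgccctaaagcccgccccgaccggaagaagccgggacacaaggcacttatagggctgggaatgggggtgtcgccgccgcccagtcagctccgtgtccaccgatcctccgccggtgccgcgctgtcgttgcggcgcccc
Xbp1, chr11:5520391-5520690, plus strand: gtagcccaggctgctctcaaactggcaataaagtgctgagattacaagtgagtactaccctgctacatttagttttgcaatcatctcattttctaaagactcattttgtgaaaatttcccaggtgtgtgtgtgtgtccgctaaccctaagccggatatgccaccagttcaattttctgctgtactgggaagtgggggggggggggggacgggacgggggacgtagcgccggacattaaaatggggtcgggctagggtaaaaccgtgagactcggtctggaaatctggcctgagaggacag
Creb3, chr4:43562408-43562707, plus strand: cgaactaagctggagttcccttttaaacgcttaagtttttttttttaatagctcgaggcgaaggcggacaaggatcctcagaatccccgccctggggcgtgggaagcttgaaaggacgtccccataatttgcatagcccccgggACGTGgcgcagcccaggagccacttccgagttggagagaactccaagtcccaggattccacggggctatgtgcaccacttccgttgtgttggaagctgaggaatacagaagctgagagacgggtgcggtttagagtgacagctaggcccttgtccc
Atf6b, chr17:34646896-34647195, plus strand: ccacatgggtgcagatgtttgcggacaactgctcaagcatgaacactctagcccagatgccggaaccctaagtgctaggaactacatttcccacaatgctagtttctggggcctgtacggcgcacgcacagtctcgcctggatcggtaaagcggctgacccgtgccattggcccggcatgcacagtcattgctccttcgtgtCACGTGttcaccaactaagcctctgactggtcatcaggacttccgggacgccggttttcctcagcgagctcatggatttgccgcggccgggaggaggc
None of the 8 windows held the full ER stress response element (CCAAT and CCACG with 9 free bases between them), its second form (ATTGG and CCACG with 1 free base between them), TGACGTGG or TGACGTCA. These letters were in 0.119%, 0.0365%, 0.676% and 1.79% of all windows, so their lack in 8 windows is no result about the sensors.

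Among bright probe sets of the sensors, that of Ern1 had the largest difference with separate groups. The brightest Ern1 probe set, 1437119_at, read 575.7, 564.6 and 468.5 in replicates 1, 2 and 3 of normal sodium. In low sodium it read 1058.0, 972.4 and 1374.7. Every low-sodium array was above every normal-sodium array. The log2 mean went from 9.06 ± 0.16 to 10.13 ± 0.26 (SD, n = 3), a difference of 1.07 ± 0.24 (SE) that did not pass without the batch term (adjusted p = 0.565). Ern1 rose in the batch-term fit (adjusted p = 0.0105), and the difference was 0.83 within replicates 1 and 2 and 1.55 within replicate 3. This call was lost without normal-sodium replicate 2 (adjusted p = 0.0571) or low-sodium replicate 1 (adjusted p = 0.057).

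The other 4 probe sets of Ern1 did not separate the groups. Probe set 1421240_at read 167.2, 106.0 and 82.5 in normal sodium and 236.3, 148.9 and 167.2 in low sodium. It was higher in low sodium at each replicate number, by 0.50, 0.49 and 1.01 on the log2 scale, but the groups overlapped (0.66 ± 0.35, adjusted p = 0.820). The third bright one, 1438583_at, was higher in replicates 1 and 2 (0.42 and 0.34) and lower in replicate 3 (-0.78), so its mean difference was -0.01. The remaining pair was dim: 1450176_at had a difference of -0.19, and 1431886_at had one of 0.74 that came from the low-sodium replicate 3 array, at 61.9 where the other 5 arrays read between 3.4 and 9.1. So 2 of the 3 bright probe sets and 3 of all 5 had a positive difference.

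Xbp1, which encodes the factor that IRE1 activates, had a negative difference in all 4 of its probe sets. Probe set 1420886_a_at read 14467.2, 14229.5 and 12098.5 in normal sodium and 11632.1, 11497.8 and 9762.2 in low sodium. The 3 differences by replicate number were -0.31, -0.31 and -0.31 on the log2 scale, a span smaller than the SD within either group (0.14). Probe set 1437223_s_at read 11871.5, 12746.9 and 12032.9 in normal sodium and 9811.8, 9803.1 and 9462.9 in low sodium. In both, each low-sodium array lay below each normal-sodium array. Their differences were -0.31 ± 0.21 and -0.33 ± 0.19 (SE) without the batch term (adjusted p = 0.862 and 0.835), and Xbp1 fell in the batch-term fit by both (adjusted p = 0.0267 and 0.0263).

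The dimmer pair of Xbp1 probe sets overlapped between groups. Probe set 1420011_s_at read 2428.6, 2747.5 and 2062.1 in normal sodium and 2340.8, 2208.7 and 1267.3 in low sodium, a difference of -0.36 ± 0.32. Its replicate differences were -0.05, -0.31 and -0.70, and the mean difference was -0.076 without low-sodium replicate 3. Probe set 1420012_at differed by -0.18 ± 0.34, with replicate differences of -0.17, -0.07 and -0.31. All 4 probe sets were lower in low sodium at all 3 replicate numbers. Both calls of Xbp1 were lost without any 1 array of replicates 1 and 2 (adjusted p between 0.0853 and 0.160).

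Among the CREB3-type factors, Creb3 was higher in low sodium by all 4 of its probe sets. Probe set 1424741_s_at read 1501.1, 1517.0 and 1454.7 in normal sodium and 2101.3, 2213.1 and 2241.7 in low sodium. Probe set 1424740_at read 703.6, 753.4 and 775.2 against 1035.1, 1080.5 and 1030.6. The groups were separate in both. The differences were 0.55 ± 0.19 and 0.50 ± 0.19 (SE; adjusted p = 0.754 and 0.775 without the batch term), and Creb3 rose in the batch-term fit by both (adjusted p = 0.0093 and 0.0281). Within replicates 1 and 2 they were 0.51 and 0.54, and within replicate 3 they were 0.62 and 0.41.

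The third bright probe set of Creb3, 1419979_s_at, read 794.8, 874.7 and 717.4 in normal sodium and 1269.5, 1212.3 and 766.5 in low sodium. Low-sodium replicate 3 fell within the normal-sodium range there, and the difference was 0.41 ± 0.28. The dim 1424742_at read at most 24.5 on any array and differed by 0.13 ± 0.33. Both calls of Creb3 were lost without any 1 array of replicates 1 and 2 (adjusted p between 0.0565 and 0.154), although the differences then lay between 0.46 and 0.58.

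Creb3l2, a CREB3 relative of secretory cells, gave 2 probe sets of opposite sign. Probe set 1437396_at read 318.2, 284.9 and 131.8 in normal sodium and 364.4, 295.4 and 191.1 in low sodium (0.26 ± 0.44). Probe set 1452381_at read 259.6, 265.1 and 242.6 against 277.3, 244.4 and 159.4 (-0.21 ± 0.28). For both probe sets the replicate 3 array was the lowest of each group, and in neither were the groups separate. The difference of 1437396_at was -0.14 without normal-sodium replicate 3, and that of 1452381_at was 0.026 without low-sodium replicate 3.

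Atf6b, the paralog of ATF6, was read by 1 probe set, 1417173_at, at 2018.5, 1903.0 and 2185.1 in normal sodium and 1567.2, 1584.0 and 1572.1 in low sodium. The log2 SD was 0.0079 in low sodium and 0.10 in normal sodium (n = 3), and all low-sodium arrays were below the normal-sodium arrays. The difference was -0.37 ± 0.19 without the batch term (adjusted p = 0.817), with -0.37, -0.27 and -0.48 at the 3 replicate numbers. Atf6b fell in the batch-term fit close to the threshold (adjusted p = 0.0469). That call was lost without any 1 array of replicates 1 and 2 (adjusted p between 0.137 and 0.179).

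Atf6 itself had 3 bright probe sets that disagreed. Probe set 1435444_at read 1458.7, 1501.8 and 1323.1 in normal sodium and 1406.5, 1528.8 and 791.5 in low sodium, so its difference of -0.26 ± 0.31 rested on the low-sodium replicate 3 array and was 0.04 without it. Probe sets 1456021_at and 1453288_at were higher in low sodium at all 3 replicate numbers, with differences of 0.23 ± 0.23 and 0.24 ± 0.24. The first of these read 1043.0, 1023.3 and 773.5 against 1200.3, 1156.4 and 966.1, and the second 826.3, 742.9 and 564.3 against 854.7, 765.3 and 877.5. Without normal-sodium replicate 3 these differences were 0.094 and 0.085, and for 1453288_at replicates 1 and 2 differed by 0.05 and 0.04 against 0.64 in replicate 3. The groups overlapped in all 3, and none passed either fit (adjusted p at least 0.221).

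Eif2ak3, the PERK gene, had 1 bright probe set, 1449278_at, which read 854.9, 934.1 and 903.7 in normal sodium and 880.0, 883.6 and 757.5 in low sodium. The difference was -0.10 ± 0.20, with 0.04, -0.08 and -0.25 at the 3 replicate numbers. Its other 2 probe sets were dim. Probe set 1430371_x_at read 49.0, 47.8 and 27.4 against 5.5, 47.4 and 16.4, a difference of -1.23 ± 0.76 with overlapping groups that was -0.50 without low-sodium replicate 1. Probe set 1453505_a_at read 13.1, 64.4 and 38.7 against 5.9, 7.0 and 2.4. These groups were separate, yet a difference of -2.55 shrank to -1.26 once the pseudocount was 16, and it passed neither fit (adjusted p = 0.635 and 0.131).

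Neither gene of the proteases that release ATF6 passed a fit. Mbtps1, by its brightest probe set 1448240_at, read 2294.4, 2440.5 and 2142.0 in normal sodium and 2064.4, 2316.0 and 2091.2 in low sodium (-0.09 ± 0.20). Probe set 1431385_a_at read 642.7, 602.3 and 391.1 against 592.5, 452.7 and 395.8 and differed by -0.17 ± 0.30. Probe set 1431386_s_at differed by -0.06 ± 0.31, with 0.03, 0.58 and -0.79 at the 3 replicate numbers. Mbtps2, by 1436883_at, read 2921.5, 2845.3 and 1617.0 against 2733.6, 2766.8 and 2449.6 (0.15 ± 0.30). Its replicate 1 and 2 arrays differed by -0.10 and -0.04 and its replicate 3 arrays by 0.60, so the sign of the mean came from normal-sodium replicate 3. A further probe set carries Mbtps2 and a second gene and was left out.

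**Figure D2:**
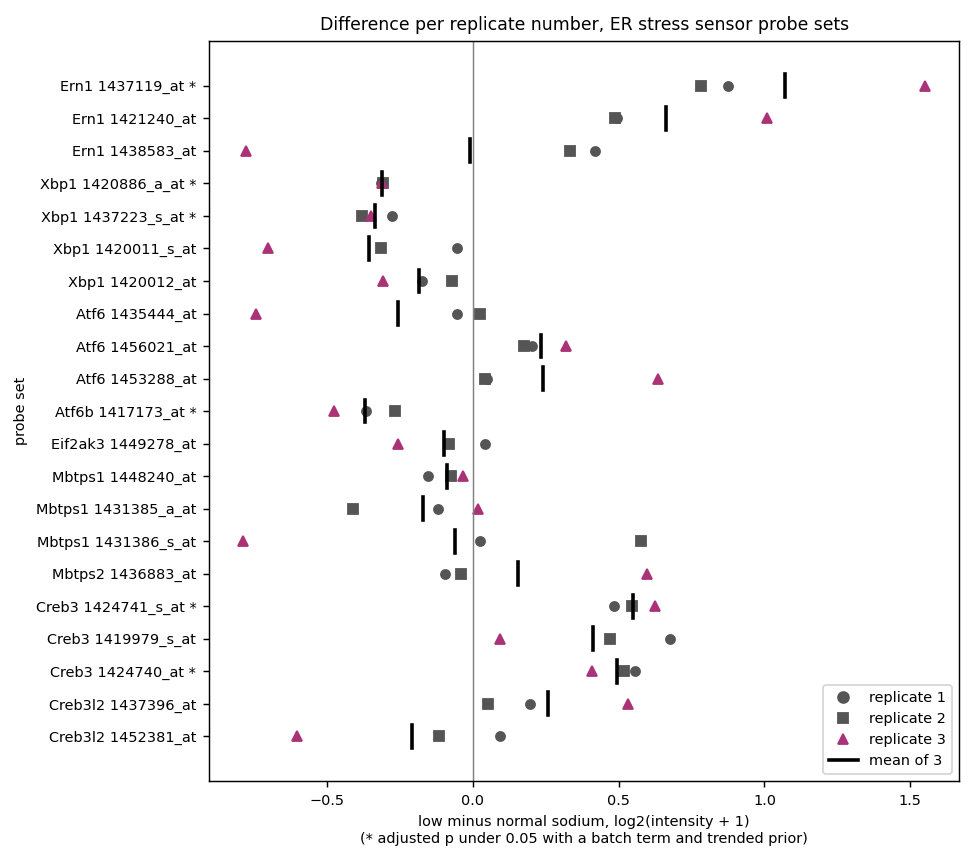
Difference of low minus normal sodium in log2(intensity + 1) for the 21 sensor probe sets at or above the median mean. Points give replicates 1 (circles), 2 (squares) and 3 (triangles), bars their mean, and asterisks the 6 probe sets that passed the batch-term fit. In each of these 6 all 3 points lie on the same side of 0, which passing the fit favours, so it is no further support.

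Sign agreement over the 26 probe sets was 8 higher and 9 lower in low sodium at all 3 replicate numbers. Of all probe sets 36.1% kept 1 sign in that way. Of the 21 bright ones 8 were higher and 6 lower, against 4883 and 5632 of all 22519 bright probe sets. The median difference of the 26 was -0.07, against -0.02 over all probe sets. When both replicate 3 arrays were left out and the prior was trended, 4 of the 26 were called higher (4.15% of all probe sets) and 3 lower (4.1%), against 8.25% of all in either direction, and the added one was the third bright probe set of Creb3. That fit called 1825 of the 22519 bright probe sets higher and 1818 lower.

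The genes downstream of ATF6 were read through 18 genes listed as ATF6 targets, largely for ER chaperones, folding enzymes and degradation factors. Each was read by its brightest probe set. A gene was placed in the ATF6 or the XBP1 list and not in both, so a gene under both factors could stand in either. In the batch-term fit 7 fell, 0 rose and 11 did not pass, against 2.93% of the 18194 genes called lower and 6.02% called in either direction. The count of 7 became 2 without normal-sodium replicate 1, 3 without normal-sodium replicate 2, 2 without low-sodium replicate 1 and 1 without low-sodium replicate 2. Without the batch term 0 of the 18 passed, and 0% of all genes. The list median was -0.31, against -0.01 over all genes, with -0.24 within replicates 1 and 2 and -0.26 within replicate 3. Groups were separate, with low sodium below, in 6 of the 18, against 9.06% of all genes.

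Fkbp11, an ER peptidyl-prolyl isomerase gene, read 732.2, 691.7 and 733.2 in normal sodium and 253.0, 324.8 and 227.2 in low sodium and was 2.70-fold lower. Its 1 other bright probe set went the opposite way. Sdf2l1, which encodes a chaperone partner, read 5877.8, 5488.3 and 4828.0 against 3918.7, 3744.2 and 3120.9 and differed by -0.59 ± 0.22. Pdia4, a protein disulfide isomerase gene, read 1805.3, 1313.8 and 1036.0 against 810.5, 995.4 and 540.4 and was 1.78-fold lower. Dnajc3, whose product p58IPK inhibits PERK, differed by -0.39 ± 0.20. These 4 genes fell in the batch-term fit (adjusted p = 0.00367, 0.00508, 0.0205 and 0.0362), as did Pdia6, Creld2 and Manf. Hspa5, which encodes the chaperone BiP that binds all 3 sensors, differed by only -0.08 ± 0.19, at 23455.1, 22959.9 and 22030.0 against 21522.2, 21095.7 and 22349.0. Herpud1, an ER degradation gene, differed by -0.39 ± 0.23, by -0.57 within replicates 1 and 2 and by -0.04 within replicate 3, and did not pass.

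Of these 18 genes 17 had a promoter window, and 9 of the 17 held the ER stress response element. It was in 50% of their windows (18, since a gene can have several) against 0.119% of all windows. The genes were listed as ATF6 targets and the windows are reference sequence, so this share is no result of these data. The second form was in the windows of Herpud1 and Dnajb11. The elements of Hspa5, of the 3 genes that hold one and fell (Pdia6, Creld2 and Dnajc3) and of Herpud1, which holds the second form, are shown for the sites searched. Capitals mark the letters that the search fixed, the lower-case letters are free and differ between genes, and each is written in the direction of the motif.
Hspa5, chr2:34772025-34772043, plus strand: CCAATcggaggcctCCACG
Pdia6, chr12:17266491-17266509, plus strand: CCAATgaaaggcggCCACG
Creld2, chr15:88819520-88819538, minus strand: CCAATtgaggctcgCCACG
Dnajc3, chr14:118937827-118937845, plus strand: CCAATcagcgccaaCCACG
Herpud1, chr8:94386377-94386387, plus strand: ATTGGgCCACG
The 11 genes with an element found had a median difference of -0.20 and 3 of them fell. The other 7, of which 1 had no window to search, had a median of -0.42 and 4 of them fell. Elements outside the windows or with other letters were not searched for, and the difference between these groups of genes was not tested.

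In the branch downstream of PERK 4 of 13 measured genes rose in the batch-term fit, against 3.09% of all genes, 0 fell and 9 did not pass, with 0 called without the batch term, and the list median was 0.34. The 4 calls became 2 without normal-sodium replicate 1 or 2 or low-sodium replicate 1, 1 without low-sodium replicate 2, and 7 without either array of replicate 3. Groups were separate, with low sodium above, in 4 of the 13, against 8.43% of all genes. Ddit3, the gene of the stress factor CHOP, read 697.5, 643.3 and 314.9 in normal sodium and 1420.0, 1378.7 and 2657.4 in low sodium. Its log2 difference was 1.73 ± 0.44 (adjusted p = 0.629 without the batch term, 0.0367 with it), made up of 1.06 within replicates 1 and 2 and 3.07 within replicate 3. Trib3, a pseudokinase gene induced by CHOP and ATF4, read 614.5, 665.7 and 239.9 against 1894.0, 1777.2 and 1011.5 (1.70 ± 0.50, adjusted p = 0.00134 in the batch-term fit). Atf3 rose by 0.92 and Nfe2l2, whose product NRF2 is a PERK substrate, by 0.34, while Sesn2 differed by 0.60 ± 0.25 without passing.

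Atf4, the factor whose translation PERK favours, did not pass, with a difference of 0.33 ± 0.33 at 7475.3, 7658.5 and 3912.6 in normal sodium and 8131.3, 8256.9 and 6653.7 in low sodium. Its difference was 0.11 within replicates 1 and 2 and 0.77 within replicate 3. The kinases that also phosphorylate eIF2 alpha had differences of -0.22 for Eif2ak1, 0.26 for Eif2ak2 and -0.17 for Eif2ak4, and none passed. The list of the PERK branch does not tell PERK from these kinases, and their parts were not tested.

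The genes listed as XBP1 targets had differences of both signs. Of 19 measured genes for translocation, secretion and ER degradation 8 had a positive and 11 a negative difference, with a median of -0.06. Groups were separate with low sodium above in 1 and below in 4, against 8.43% and 9.06% of all genes. At all 3 replicate numbers 3 were higher and 8 lower, against 3644 and 3764 of the 18194 genes. In the batch-term fit 1 rose and 0 fell, a share near the 6.02% of all genes called. The gene that rose was Dnajb9, which encodes the cochaperone ERdj4 that binds IRE1, at 1237.3, 1202.8 and 771.6 in normal sodium and 1917.0, 1897.7 and 996.8 in low sodium. Its difference was 0.55 ± 0.37 without the batch term and passed with it (adjusted p = 0.0181), and each replicate number showed the same direction although the groups overlapped. This call was lost without any 1 array of replicates 1 and 2 (0 of 19 called), and without either array of replicate 3 the list held 4 calls. Pdia5 (-0.47), Sec61b (-0.29) and Kdelr3 (1.44, dim) had the smallest p beside Dnajb9 in the fit without the batch term. They passed neither fit. No gene was put in both the XBP1 and the ATF6 list, and the lists were not used to tell these factors apart.

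**Figure D3:**
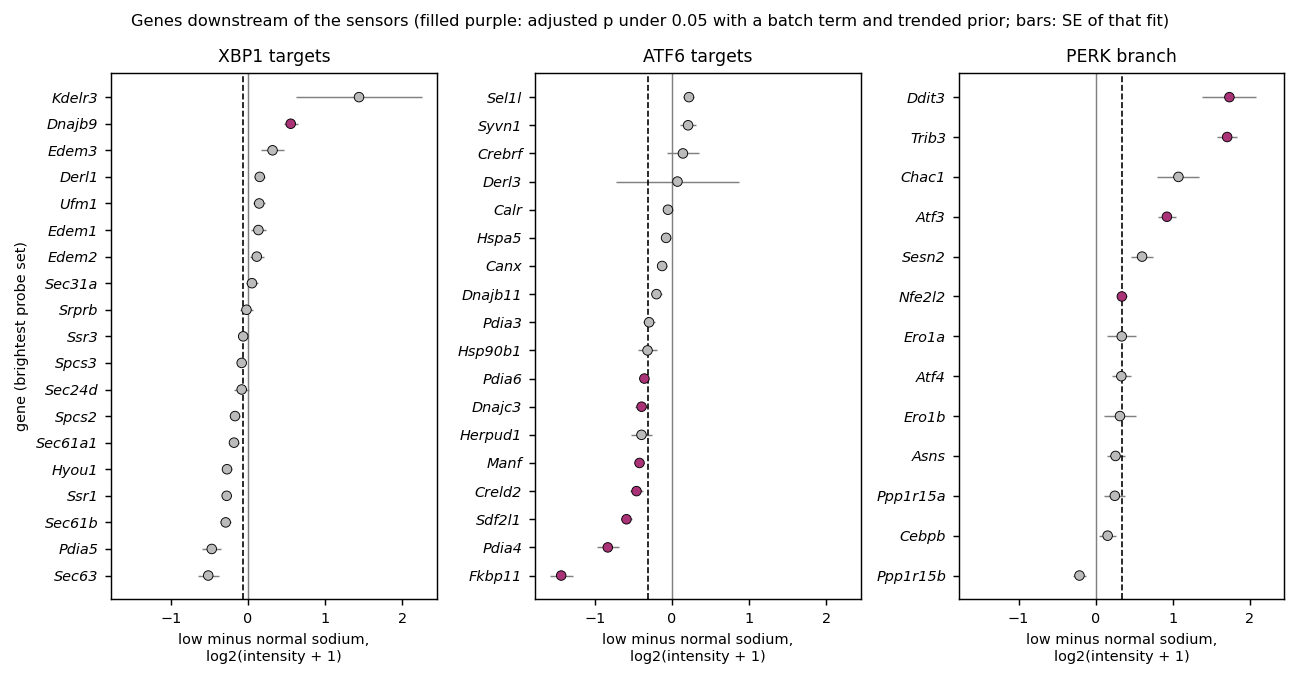
Difference of low minus normal sodium in log2(intensity + 1) for the measured XBP1 targets (19 genes), ATF6 targets (18) and genes of the PERK branch (13), each by its brightest probe set. Error bars are the SE of the batch-term fit, purple points passed it, and dashed lines are list medians (-0.06, -0.31 and 0.34).

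Partners of the sensors gave 17 measured genes with a median of -0.00, of which 2 rose and 1 fell in the batch-term fit, where 3.09% of all genes rose and 2.93% fell. Nck1, an adaptor that binds PERK and eIF2, rose by 0.74 ± 0.11 (SE of that fit), at 633.9, 671.3 and 762.6 in normal sodium and 1112.4, 1245.7 and 1104.1 in low sodium. Dnajb9 and Pdia6, counted above too, were the others. Wfs1, an ER protein gene linked to ATF6 turnover, differed by 0.95 and Traf2, the adaptor of IRE1, by -0.40, with separate groups but without passing.

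The 10 further genes of the site-1 and site-2 protease pathway had a median of -0.26, and 1 rose and 0 fell, where 6.02% of all genes were called, so that a single call in so short a list is no result about the list. Creb3l3, a CREB3 relative known from liver, rose by 1.13 ± 0.21 (SE of the batch-term fit), from 106.2, 90.3 and 135.8 to 201.4, 261.6 and 262.9. Srebf2, the gene of a sterol-regulated factor cut by both proteases, differed by -0.52, Gnptab, whose precursor the site-1 protease cuts, by 0.68 and Creb3l4 by -0.39, and these did not pass. Paralogs of the sensors and their factors numbered 9, with a median of -0.17, and Creb3l3 again was the 1 that passed. Crem (-0.36) and Creb1 (-0.33) did not pass. Ern2, the gut paralog of Ern1, was dim, with a mean intensity of 2.96.

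Transcripts known to be cut directly by IRE1 numbered 8, with a median of -0.56, of which 1 rose and 0 fell, where 3.09% of all genes rose and 2.93% fell. Rtn4 rose by 0.32, whereas Galnt10 (0.61) did not pass. The negative median rested on 4 dim probe sets, those of Pdgfrb (-2.13), Scara3 (-1.09), Sparc and Col6a1, and it was -0.18 with a pseudocount of 16.

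Over the 6 arrays, the genes whose brightest probe set followed that of Ern1 most closely were Anxa1 (Pearson r = 0.999), Abcd3 (0.999) and Atp6v1h (0.996), of 10902 bright genes compared. Those closest to Xbp1 were Slc2a6 (0.998), Nat10 (0.994) and Ddx21 (0.993). These points share 2 groups and the shift of the replicate 3 arrays, and the values are given as a description.

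The identity of the cells was read from marker genes. All 10 macrophage markers were bright, and their summed intensity was between 132190 and 140270 in normal sodium and between 142410 and 158900 in low sodium. Osteoclast markers, of which 7 of 9 were bright, summed to between 812 and 2204 in normal sodium and to between 6235 and 7481 in low sodium. Of the 9, 7 had a higher mean in low sodium and 2 a lower one. The groups were separate for 1, Atp6v0d2, a proton pump subunit gene that read 329.2, 302.1 and 151.7 against 1638.7, 1811.4 and 6156.2. This gene rose in the batch-term fit (adjusted p = 0.0108), where 3.09% of all genes rose. So did Dcstamp (0.0027), Ocstamp (0.0125), Ctsk (0.0224) and Mmp9 (0.0245), while Acp5, Calcr, Oscar and Itgb3 did not pass. Without Atp6v0d2, a gene left out after its values were seen, the sums overlapped, at 660 to 1875 in normal sodium and 1325 to 4800 in low sodium. The macrophage sums did not overlap. Of the macrophage markers Adgre1 and Mpeg1 rose (adjusted p = 0.0039 and 0.0096) and the others did not pass. The part of these cell markers in the results was not tested. Markers of other cells were mostly dim: 3 of 6 measured for osteoblasts and fibroblasts, 1 of 5 for B and plasma cells, 1 of 4 for T cells and 1 of 5 for dendritic cells were bright, and their sums overlapped between the groups. Sdc1, the bright marker of B and plasma cells, rose by 0.59 (adjusted p = 0.0164 in the batch-term fit), and the rest did not pass. None of these markers was listed at 0. Fewer cells with a transcript and less of it per cell cannot be told apart in such bulk RNA.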

How the data were processed

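Total RNA of 6 RAW264.7 cultures was biotin-labelled and hybridised to Affymetrix arrays, per the labels' protocols. The deposited files hold linear intensities, 1 value for a probe set on an array. The submitters' processing notes name Partek, without a version. How probes were summarised was not found in the labels or headers. The values were scaled by the authors or their software, since the mean without the lowest and highest 2% was 500.0 on each array. Log2(intensity + 1) was tested for 45037 probe sets, without 64 control probe sets. The platform annotation gives 1 gene for 34945, several for 932 and none for 9160, and only those with 1 were named. Symbols were updated through the RefSeq table of GRCm38.p6.

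Low was compared with normal sodium with limma 3.58.1 in R 4.3.3 (eBayes, two-sided, Benjamini-Hochberg over all probe sets, threshold 0.05). The batch-term fit added replicate 3 against replicates 1 and 2 and a trended prior. Adjusted p-values of list genes are over all probe sets as well. Genes were read by their brightest probe set, and 6 listed genes (Srp54a, Eif2s1, Map2k7, Bax, Atf1 and Bloc1s1) were not analysed here. All probe sets of the 9 genes were named, with the 4 smallest p of each list and Hspa5, Dnajb9, Pdia4, Sdf2l1, Herpud1, Atf4 and Ddit3, and the 3 genes most like Ern1 and Xbp1. Other list genes were named after their values were seen. The members, lists and models were chosen with earlier results of these data known. Replicate numbers were not taken as pairs. P-values measure the spread between cultures of 1 line, and the number of arrays limits the precision. In the batch-term fit the shift that replicate 3 shares between groups is taken out of that spread. Median intensity was 70.2, 66.5 and 56.1 in normal-sodium replicates 1, 2 and 3, and 74.5, 74.0 and 47.8 in low-sodium ones. Whether replicates 1 and 2 were as independent of each other as of replicate 3 was not tested. No detection calls were used.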

Additional observations from a re-analysis of the deposited data

How the results depend on the processing

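Of the 26 sensor probe sets 17 kept the sign of their difference under the 10 settings that can change it (pseudocount 16, quantile normalisation, median centring, each array left out, replicates 1 and 2 alone). The other models and the filter on dim probe sets leave the difference as it is. The count of probe sets called, 0 at first, was 33 with a trended prior, 1 with a pseudocount of 16, 2 among bright probe sets, 703 with the replicate block and a trended prior, 1840 in the batch-term fit and 3714 without both replicate 3 arrays and with a trended prior, an alternative added after the data were seen. Sensor probe sets called were 2, 6 and 7 under the last 3. The replicate number as a block with a constant prior called 0. Deviations of same-numbered arrays from their group means correlated at 0.08, 0.06 and 0.20 for replicates 1, 2 and 3 over all probe sets. Replicates 1 and 2 crossed gave 0.07 and 0.08 there. Normal-sodium replicate 3 gave -0.13 and -0.11 with low-sodium replicates 1 and 2. The labels name no pairing and these values did not tell replicates 1 and 2 apart, so the numbers were not taken as pairs. Over bright probe sets the deviations of same-numbered arrays correlated at 0.33, 0.33 and 0.51, all over 0.1, but replicates 1 and 2 crossed gave 0.32 and 0.34. Normal-sodium replicate 2 correlated best with low-sodium replicate 1 in both sets. With the block and a trended prior, Ern1 1437119_at (adjusted p = 0.0377) and Creb3 1424741_s_at (0.0460) were called and the calls of Xbp1 (0.120 and 0.107), Atf6b (0.150) and Creb3 1424740_at (0.0985) were lost, with 2 ATF6 targets, 2 PERK branch genes and 0 XBP1 targets called. The batch-term fit called between 380 and 3684 probe sets, between 0 and 7 sensor probe sets, between 0 and 4 XBP1 targets, between 1 and 9 ATF6 targets and between 1 and 7 PERK branch genes when 1 array was left out, with the low counts without an array of replicates 1 or 2.

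In the batch-term fit and, with a trended prior, in replicates 1 and 2 alone, the lists held 1 and 5 called XBP1 targets, 7 and 9 ATF6 targets, 4 and 7 PERK branch genes, 3 and 3 partners, 1 and 4 protease pathway genes, 1 and 1 paralogs and 1 and 1 IRE1-cut transcripts. In replicates 1 and 2 alone, list medians moved to -0.017 for XBP1 targets, -0.24 for ATF6 targets, -0.15 for the protease pathway and -0.22 for IRE1-cut transcripts. With the mean of all probe sets of a gene they moved to -0.10 for XBP1 targets, -0.21 for ATF6 targets and -0.083 for IRE1-cut transcripts, the last being -0.18 with a pseudocount of 16. The causes were not tested.

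Signs turned in probe sets that passed no fit. With replicates 1 and 2 alone, Ern1 1438583_at became 0.38, Ern1 1431886_at -0.58, Mbtps1 1431386_s_at 0.30 and Mbtps2 1436883_at -0.068, and Ern1 1438583_at became 0.029 with a pseudocount of 16. With 1 array left out, the ranges were -0.38 to 0.58 for Ern1 1438583_at, -0.40 to 1.52 for Ern1 1431886_at, -0.39 to 0.083 for Xbp1 1420012_at, -0.43 to 0.040 for Atf6 1435444_at, -0.25 to 0.20 for Mbtps1 1431386_s_at, -0.12 to 0.30 for Mbtps2 1436883_at, -0.13 to 0.33 for Creb3 1424742_at, -0.14 to 0.52 for Creb3l2 1437396_at and -0.37 to 0.026 for Creb3l2 1452381_at.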
